A study of Mus musculus with 6 samples.

Results

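Hypoxia-high tumor cells were the tumor cells with the highest expression of 7 oxygen-regulated genes, *Hk2*, *Slc2a1*, *Ero1l*, *Bnip3*, *Adm*, *Ndrg1* and *Ankrd37*, in 6 mouse rhabdoid tumors. The score of a cell was the sum of its unique molecular identifiers (UMIs, each a captured transcript) for these genes per 10000 UMIs. Cells at or above the 90th percentile of the tumor cells of their tumor were called hypoxia-high, and cells below the median were called hypoxia-low. This gave 224 hypoxia-high and 1179 hypoxia-low cells among 2210 tumor cells, out of 22163 cells kept. Tumor cells had at least 200 genes, at most 25% mitochondrial UMIs, at least 3 of the 6 genes *Meg3*, *Serpinh1*, *Col1a2*, *Id3*, *Prrx1* and *Crabp1*, and under 10 UMIs of *Tyrobp*, *Fcer1g* and *Ptprc* per 10000. The 7 genes chose the cells, so their levels are given as a description and were not tested.

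The tumors arose after loss of *Smarcb1*, a member of the SWI/SNF complex, which shifts nucleosomes along DNA, in C57BL/6 mice with floxed *Smarcb1* alleles and a tamoxifen-inducible Cre recombinase. Tamoxifen was given to the pregnant dams, so every tumor shares the deletion and the treatment, and no untreated or *Smarcb1*-intact tumor is among them. The 3 MYC spinal tumors, of mice Rosini1172, Rosini1177 and Rosini1232 (19, 26 and 17 weeks of age), and the extracranial rhabdoid tumor (eRT) of mouse Rosini1148 (gland, 17 weeks) arose with Cre from the ubiquitous Rosa26 locus. The eRT of mice Soxertini568 (jaw, 29 weeks) and Soxertini593 (shoulder, 22 weeks) arose with Cre from *Sox2*, so subtype and mouse model are partly confounded. The age of Rosini1148 is the one in its label, and the study's supplementary text gives a different one. Tumors are named as in the labels, where Soxertini568_maxilar is written Soxertini568. Each tumor is 1 animal and 1 library. Cells carry a number and no barcode sequence in these tables, so barcodes shared between libraries could not be counted.

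Cells that lack oxygen stabilise the alpha subunit of hypoxia-inducible factor (HIF), which prolyl hydroxylases otherwise mark for destruction by the VHL ubiquitin ligase. HIF pairs with ARNT and binds a short core motif in regulatory DNA near genes for glucose uptake, glycolysis, lactate export, angiogenesis, mitophagy and collagen modification. In solid tumors such a program is known from regions far from blood vessels.

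Promoter windows of *Bnip3*, *Ankrd37*, *Hk2* and *P4ha1* are shown as examples, picked because the HIF core motif can be read in them. The motif was searched as ACGTG or GCGTG on both strands (CACGT or CACGC when read on the printed strand), so that the palindrome CACGTG counts on each. Windows reach from 250 bases before to 50 bases after the start of RefSeq transcripts on GRCm38.p6, 5′ to 3′, with each match in capitals.

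Bnip3 (chr7:138909457-138909756, minus strand): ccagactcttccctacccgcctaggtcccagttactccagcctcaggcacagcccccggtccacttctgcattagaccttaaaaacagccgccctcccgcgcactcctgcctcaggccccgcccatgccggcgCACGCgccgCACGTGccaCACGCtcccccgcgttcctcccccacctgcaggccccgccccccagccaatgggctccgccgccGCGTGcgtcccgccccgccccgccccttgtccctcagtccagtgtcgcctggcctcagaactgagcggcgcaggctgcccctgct
Ankrd37 (chr8:45999801-46000100, minus strand): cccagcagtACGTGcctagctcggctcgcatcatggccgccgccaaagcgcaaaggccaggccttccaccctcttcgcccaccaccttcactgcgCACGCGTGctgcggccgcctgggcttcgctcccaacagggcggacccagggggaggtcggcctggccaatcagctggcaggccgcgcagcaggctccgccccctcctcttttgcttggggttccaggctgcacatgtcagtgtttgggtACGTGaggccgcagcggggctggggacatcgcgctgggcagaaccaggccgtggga
Hk2 (chr6:82774405-82774704, minus strand): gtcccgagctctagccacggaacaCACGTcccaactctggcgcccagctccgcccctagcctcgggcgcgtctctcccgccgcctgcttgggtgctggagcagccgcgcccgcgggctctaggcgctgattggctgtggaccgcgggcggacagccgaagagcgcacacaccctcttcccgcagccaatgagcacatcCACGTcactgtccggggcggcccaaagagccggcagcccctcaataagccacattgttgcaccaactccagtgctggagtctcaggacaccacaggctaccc
P4ha1 (chr10:59323046-59323345, plus strand): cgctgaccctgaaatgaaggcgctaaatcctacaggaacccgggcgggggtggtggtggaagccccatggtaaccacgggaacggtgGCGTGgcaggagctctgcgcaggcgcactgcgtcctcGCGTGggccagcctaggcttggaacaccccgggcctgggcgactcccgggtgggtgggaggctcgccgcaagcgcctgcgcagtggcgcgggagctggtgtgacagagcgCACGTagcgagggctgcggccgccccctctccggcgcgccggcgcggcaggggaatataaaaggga

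*Bnip3*, a mitophagy receptor, had 5 matches, *Ankrd37* had 4, *Hk2*, the inducible hexokinase, had 2 and *P4ha1*, the catalytic subunit of collagen prolyl 4-hydroxylase, had 3. The 6 score genes other than *Ndrg1* matched a RefSeq window and each held at least 2 matches (*Ero1l* is listed there as *Ero1a*), against 22.9% of the 27025 genes with a window. At least 1 match was found for 13 of 16 glycolysis genes (81.3%) and for 30 of 35 matched hypoxia target genes (85.7%), against 46.7% of all genes. Nuclear genes of the respiratory chain held a match in 41 of 62 matched genes (66.1%) and the collagen genes in 7 of 14 (50%). Of the genes called higher in the fit over 6 tumors given below, 18 of 20 matched genes held a match, and *Gpi1* and *Il1b* held 0. These are matches of letters and were not tested as binding sites.

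The number of tumor cells set how much each tumor could show. The hypoxia-high cells numbered 10, 2 and 134 in MYC spinal Rosini1172, Rosini1177 and Rosini1232 and 6, 7 and 65 in eRT Rosini1148, Soxertini568 and Soxertini593, so 199 of the 224 came from Rosini1232 and Soxertini593. Their summed UMIs were 61551, 4785 and 628003 among MYC spinal tumors, and among eRT they were 35394, 44981 and 248620. A count of 3 UMIs, taken as a rough limit for a count of 0, was worth 627 CPM (UMIs scaled to a common total) in the 2 cells of Rosini1177 and 4.78 CPM in the cells of Rosini1232. Such limits and the intervals given later cover counting error only. The 6 tumor genes, which also served to choose the cells, summed to 6336 to 16527 CPM in hypoxia-high cells and 11.4 to 162 CPM in immune cells. *Smarcb1* itself had 0 UMIs in the hypoxia-high cells of 4 tumors and 2 UMIs each in Rosini1232 (3.18 CPM) and Soxertini593 (8.04 CPM). Immune cells of the same 6 tumors, those with at least 10 UMIs of the immune genes per 10000 and under 3 tumor genes, had 23.9 to 59.6 CPM, and tumor cells as a whole had 0 to 3.35 CPM. The hypoxia-high cells of the 2 best-filled tumors were thus far below the immune cells. In the other 4 the 95% Poisson interval of the count of 0 reached up to 59.9, 771, 104 and 82.0 CPM. That is above the immune level of the same tumor in each of them.

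The height of the score differed between tumors. Its 90th percentile was 3.52, 9.46 and 17.2 UMIs per 10000 in MYC spinal Rosini1172, Rosini1177 and Rosini1232, and 14.9, 9.81 and 4.95 in eRT Rosini1148, Soxertini568 and Soxertini593. The highest cell of Rosini1232 reached 137 and the highest cell of Soxertini593 reached 26.2. No score UMI was found in 30.5% of the tumor cells of Rosini1232 but in 56.8% and 60.6% of those of Rosini1172 and Soxertini593, where the median was 0 and the hypoxia-low cells are those at 0. Just inside and just outside the threshold the score was 17.2 and 17.1 in Rosini1232, 5.06 and 4.93 in Soxertini593, and 3.54 and 3.50 in Rosini1172. The thresholds of Rosini1172 and Soxertini593 thus lay between the median and the 75th percentile of Rosini1232 (2.94 and 6.68), so hypoxia-high is a relative class within each tumor.

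**Figure D1:**
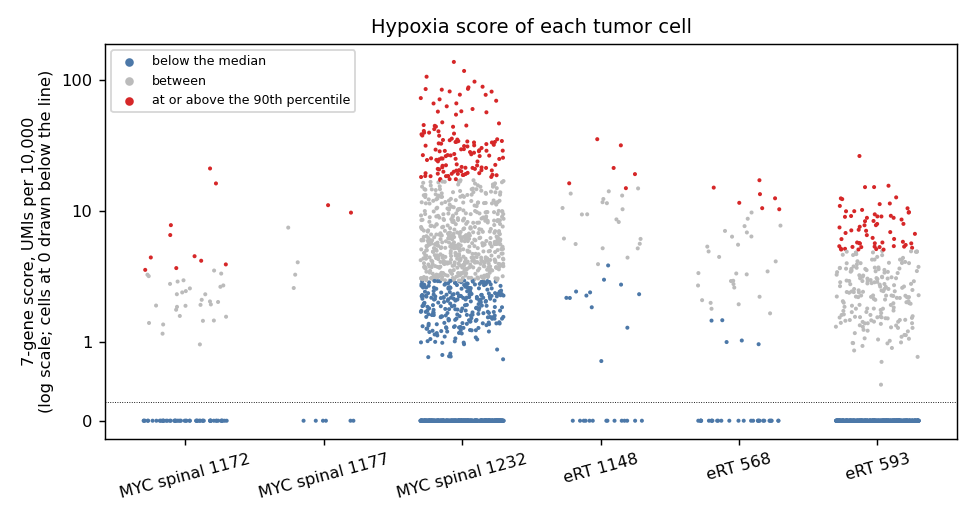
Score of the 7 genes in each tumor cell (UMIs per 10000, log axis, cells at 0 drawn below the dotted line) for the 6 tumors, colored by state. Tumor Rosini1232 reaches 137 and sets its threshold at 17.2, while Rosini1172 and Soxertini593 set theirs at 3.52 and 4.95.

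The hypoxia-high cells held 42, 5 and 2199 UMIs of the 7 genes in MYC spinal Rosini1172, Rosini1177 and Rosini1232. In eRT Rosini1148, Soxertini568 and Soxertini593 they held 77, 55 and 201, the last over 65 cells. In Rosini1172, Rosini1177 and Soxertini593 a cell was thus placed by few UMIs. The 7 genes contributed unequally. *Slc2a1*, the glucose transporter GLUT1, was at 32.5, 0 and 932 CPM in the hypoxia-high cells of MYC spinal Rosini1172, Rosini1177 and Rosini1232, and in eRT Rosini1148, Soxertini568 and Soxertini593 the values were 904, 556 and 278 CPM. It was the leading gene of Rosini1232 (26.6% of the score UMIs) and of eRT Rosini1148 and Soxertini568 (41.6% and 45.5%). *Ankrd37*, a small ankyrin repeat gene known as a direct HIF target, led in Soxertini593 with 39.3% of the score UMIs, ahead of *Slc2a1* with 34.3%. *Adm*, the vasodilator peptide adrenomedullin, made up 73.8% of the score UMIs in Rosini1172, where it stood at 504 CPM, and at most 24.7% in the other tumors. Tumor Rosini1172 had no UMI of *Hk2* or *Ndrg1* in its hypoxia-high cells, and only 2 of these 10 cells had a UMI of *Slc2a1*.

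*Bnip3* was detected in all 6 tumors, at 32.5, 627, 748, 367, 111 and 60.3 CPM in the hypoxia-high cells in the order of mice Rosini1172, Rosini1177, Rosini1232, Rosini1148, Soxertini568 and Soxertini593. *Ndrg1*, a stress-response gene, was at 642 CPM in Rosini1232 and at most 24.1 CPM in the other 5. *Hk2* was at 179.9 CPM in Rosini1232, 156 CPM in Soxertini568 and 16.1 CPM in Soxertini593. *Ero1l*, an oxidase that forms disulfide bonds in the endoplasmic reticulum, ranged from 32.5 CPM in Rosini1172 to 454 CPM in Rosini1232.

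**Figure D2:**
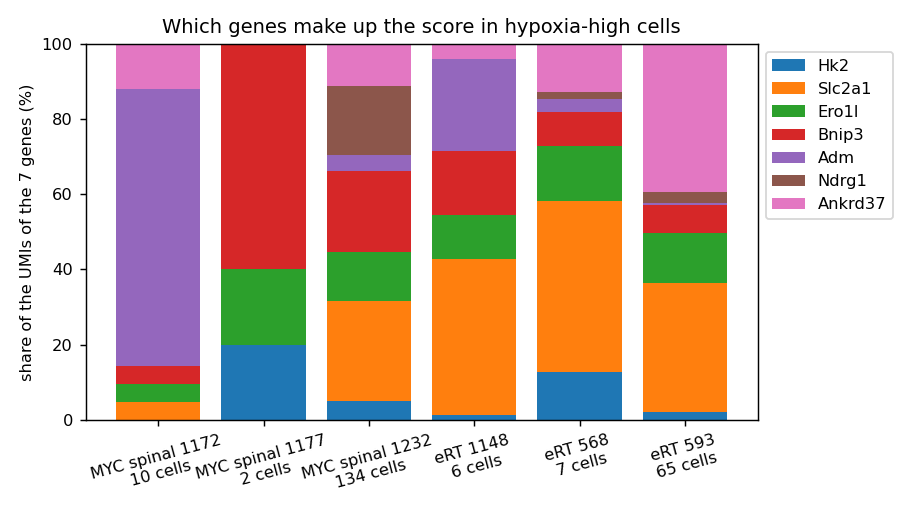
Share of the UMIs of the 7 score genes that each gene supplied in the hypoxia-high cells of each tumor, with the number of cells under each bar. *Adm* supplies 73.8% in Rosini1172, whereas *Slc2a1* supplies 26.6% in Rosini1232 and 45.5% in Soxertini568.

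When each gene was left out and the cells were chosen on the other 6, its level in the hypoxia-high and hypoxia-low cells shows how far the 7 genes went together. In Rosini1232 all 7 genes were higher in the cells so chosen. *Hk2* was at 171 against 2.46 CPM, *Adm* at 142 against 7.91 CPM, *Ero1l* at 383 against 28.7 CPM, *Bnip3* at 620 against 47.0 CPM and *Slc2a1* at 799 against 81.9 CPM. In Soxertini593 the contrast was smaller. *Slc2a1* was at 104 against 54.5 CPM there, *Ankrd37* at 104 against 50.8 CPM and *Ero1l* at 36.1 against 22.3 CPM. *Bnip3* was higher in 6 of 6 tumors, *Hk2*, *Slc2a1* and *Ankrd37* in each of the 5 tumors where they had a UMI, *Adm* and *Ero1l* in 4 tumors and *Ndrg1* in 2. Where *Hk2* was found outside Rosini1232, it rested on 1 to 3 UMIs in the hypoxia-high cells. A second check chose cells on a random part of the UMIs and measured genes on the rest. There *Bnip3* was higher in 5 of 6 tumors with a UMI and *Slc2a1* in 5 of 5. *Hk2*, *Adm* and *Ero1l* were higher in 4 tumors, *Ankrd37* in 3 and *Ndrg1* in 2. In Rosini1172 *Adm* stood at 196 against 79.1 CPM in cells chosen on the other 6 genes, from 12 and 30 UMIs.

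The other genes were compared between hypoxia-high and hypoxia-low cells of the same tumor, on UMIs summed over cells, with edgeR's quasi-likelihood test. Tumors Rosini1172, Rosini1232 and Soxertini593, the ones with at least 10 cells in each state, entered, and 0 of 5967 genes passed an adjusted p of 0.05. DESeq2 on the same sums also called 0. At an unadjusted p under 0.05, 208 genes were higher (3.49% of those tested) and 150 were lower (2.51%), and DESeq2 gave 53 and 26. Results for gene groups below are therefore counts and levels, not calls. A fit over all 6 tumors, chosen after the data had been seen, called 23 genes higher (0.527% of 4364 tested) and 6 lower (0.137%). That fit depends on single tumors. Without Rosini1177, with 2 hypoxia-high cells, it called 1 gene, and without Rosini1232 it called 4. Without Rosini1172 it called 45. Genes are said to have risen or fallen below where they passed this fit. Because edgeR estimates the spread partly from all genes together, a gene's SE and p-value do not measure its own spread between tumors alone.

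Enzymes of glycolysis were higher in hypoxia-high cells by count and by median. All 13 glycolysis genes tested over 3 tumors had a positive fold change, against 47.7% of all genes, with a median log2 fold change of 1.10 against -0.02 over all genes, and 11 of the 13 had an unadjusted p under 0.05, against 3.49% of all genes. Over all 6 tumors 5 of 12 rose: *Pfkl*, *Pgk1*, *Gpi1*, *Pgam1* and *Aldoa*. The median log2 ratio of the 13 genes, on CPM after adding 10, was 0.29 in Rosini1172, 1.42 in Rosini1232 and 0.62 in Soxertini593, and 2.27, 1.22 and 0.95 in Rosini1177, Rosini1148 and Soxertini568. The 2.27 of Rosini1177 comes from 2 hypoxia-high cells. Without Rosini1232, the fit over the 2 tumors left gave a median log2 fold change of 0.66 and called 0 of 11 glycolysis genes, and the fold change of *Pgk1* turned to -0.73.

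*Aldoa*, fructose-bisphosphate aldolase, was at 910, 627 and 3153 CPM in the hypoxia-high cells of MYC spinal Rosini1172, Rosini1177 and Rosini1232 and at 744, 78.6 and 1100.2 CPM in the hypoxia-low cells. In eRT Rosini1148, Soxertini568 and Soxertini593 it was at 3701, 1245 and 1303 CPM against 1306, 550.3 and 556 CPM. It was higher in 6 of 6 tumors, as were 0.917% of the 4364 genes, and levels of the states overlapped between tumors (log2 fold change 1.13 ± 0.26 SE, adjusted p = 0.0112 by edgeR over 6 tumors). *Gpi1*, glucose-6-phosphate isomerase, was at 471, 418 and 1360 CPM against 264, 78.6 and 249.9 CPM in Rosini1172, Rosini1177 and Rosini1232. Among eRT it was at 1215, 422 and 245 CPM against 474, 166 and 163 CPM, again higher in 6 of 6. For both genes Rosini1177 rests on 2 hypoxia-high and 6 hypoxia-low cells, where 3 UMIs are worth 627 and 118 CPM. *Pfkl*, the liver-type phosphofructokinase, was at 204 against 56.7 CPM in Rosini1232, 339 against 64.4 CPM in Rosini1148 and 111 against 12.8 CPM in Soxertini568, but at 32.5 against 44.6 CPM in Rosini1172 (log2 fold change 1.67 ± 0.30 SE, adjusted p = 5.70e-04 over 6 tumors). *Ldha*, the lactate dehydrogenase subunit that favors lactate, was higher in 6 of 6 tumors without passing (log2 fold change 0.95 ± 0.25 SE, adjusted p = 0.0518). *Tpi1*, triosephosphate isomerase, was at 0.48 ± 0.28 SE over 6 tumors (adjusted p = 0.771).

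Of 20 genes for glucose and lactate transport and its control, 7 were tested over 3 tumors, with a median log2 fold change of 1.29. *Slc16a3*, the lactate exporter MCT4, rose over 6 tumors (log2 fold change 2.26 ± 0.50 SE, adjusted p = 0.00676) and was higher in 6 of 6. MYC spinal tumors had 16.2, 209 and 25.5 CPM against 3.43, 0 and 5.2 CPM, and eRT had 141, 22.2 and 64.4 CPM against 27.6, 6.40 and 14 CPM, where the 209 CPM of Rosini1177 is 1 UMI. *Pdk1*, a kinase that blocks the entry of pyruvate into the citric acid cycle, was at 89.2 against 27.1 CPM in Rosini1232 and 84.8 against 9.20 CPM in Rosini1148 (adjusted p = 0.212 over 6 tumors). *Slc2a3*, the glucose transporter GLUT3, was at 146 against 44.6 CPM in Rosini1172, where *Slc2a1* was low, and at 11.1 against 1.64 CPM in Rosini1232 (adjusted p = 0.136 over 6 tumors).

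The oxygen-sensing machinery was sparsely captured. Of 11 genes, 3 were tested over 3 tumors and none had an unadjusted p under 0.05. *Hif1a*, the oxygen-labile subunit itself, was at 20.7 against 17.0 CPM in Rosini1232, 32.5 against 27.4 CPM in Rosini1172 and 28.2 against 22.9 CPM in Soxertini593 (log2 fold change 0.34 ± 0.38 SE). *Arnt*, its partner, had a log2 fold change of 0.82 ± 0.57 SE. With adjusted p of 0.947 and 0.916 by edgeR over 3 tumors, neither passed, and *Hif1a* rested on 13, 2 and 7 UMIs in the hypoxia-high cells.

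Other genes known as hypoxia targets were higher in 23 of the 27 members tested over 3 tumors (47.7% of all genes), with a median log2 fold change of 0.82 and 13 higher at an unadjusted p under 0.05 (3.49% of all genes). The median rests on Rosini1232, without which it was 0.31. By tumor the median log2 ratio was 0, 0 and 1.01 in Rosini1172, Rosini1177 and Rosini1232 and 0.21, 0.86 and 0.30 in Rosini1148, Soxertini568 and Soxertini593. Over 6 tumors 8 of 26 rose (0.527% of all genes): *Hmox1*, *Ier3*, *Higd1a*, *Fam162a*, *Hilpda*, *Sap30*, *Ccng2* and *Bhlhe40*. *Higd1a*, an inner-membrane protein of the mitochondrion, was at 260, 1463 and 1866 CPM against 237, 197 and 209 CPM in MYC spinal Rosini1172, Rosini1177 and Rosini1232. In eRT Rosini1148, Soxertini568 and Soxertini593 it was at 1045, 467 and 326 CPM against 322, 205 and 161 CPM, so it was higher in 6 of 6 tumors (log2 fold change 1.5 ± 0.30 SE, adjusted p = 0.00306). *Fam162a*, a HIF-responsive mitochondrial protein, was at 1414 against 283 CPM in Rosini1232, 932 against 281 CPM in Rosini1148 and 330 against 197 CPM in Soxertini593, but at 179 against 226 CPM in Rosini1172.

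*Hmox1*, heme oxygenase, was the gene that passed in each of the 11 alternatives of the 6-tumor fit. It was at 1863 against 546 CPM in Rosini1232, 1158 against 161 CPM in Rosini1148, 956 against 89.6 CPM in Soxertini568, 179 against 85.8 CPM in Rosini1172 and 133 against 88.4 CPM in Soxertini593, with 0 UMIs in the 2 cells of Rosini1177 (log2 fold change 1.82 ± 0.31 SE, adjusted p = 4.05e-04). *Bnip3l*, a relative of *Bnip3* that the rule did not use, was higher in 6 of 6 tumors without passing (log2 fold change 0.85 ± 0.27 SE, adjusted p = 0.142). *Vegfa*, the main angiogenic ligand, was too sparse for the 3-tumor test. It had 23 UMIs in the hypoxia-high cells of Rosini1232 (36.6 against 3.83 CPM), and 0 UMIs in Rosini1172 and Rosini1177. The 6-tumor fit gave 2.05 ± 0.67 SE (adjusted p = 0.171). Of 21 angiogenic ligands, 7 were tested over 3 tumors and none had an unadjusted p under 0.05.

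*Ier3*, an early stress-response gene, was at 369 against 55.0 CPM in Rosini1232, 711 against 122 CPM in Soxertini568 and 28.2 against 21.0 CPM in Soxertini593, and at 56.5 against 161 CPM in Rosini1148 (log2 fold change 1.84 ± 0.33 SE, adjusted p = 5.70e-04). *Hilpda*, a lipid droplet protein induced by HIF, was at 175 against 35.9 CPM in Rosini1232 and 169.5 against 36.8 CPM in Rosini1148, but had 0 UMIs in the hypoxia-high cells of Rosini1172. *Bhlhe40*, a transcriptional repressor, was at 367 against 55.2 CPM in Rosini1148 and 72.4 against 68.0 CPM in Soxertini593. In Soxertini593 these 3 genes lay close to the hypoxia-low cells, whereas in Rosini1232 and Soxertini568 they were higher. Without Rosini1232, the fold change of *Bhlhe40* over the 2 tumors left was -0.030.

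Genes outside the glycolysis and hypoxia target lists rose as well. *Mfge8*, a secreted bridging protein for apoptotic cells, was higher in 6 of 6 tumors, at 159 against 87.6 CPM in Rosini1232, 848 against 299 CPM in Rosini1148 and 334 against 135 CPM in Soxertini593 (log2 fold change 1.13 ± 0.25 SE, adjusted p = 0.00810). *Nampt*, an enzyme of NAD synthesis, was at 169 against 27.6 CPM in Rosini1232 and 32.2 against 12.7 CPM in Soxertini593. *Mt1*, a metallothionein, was at 860 against 162 CPM in Rosini1232 and 4802 against 1401 CPM in Soxertini568, but at 3363 against 3969 CPM in Rosini1172, and its change was 0.34 (adjusted p = 0.901) in cells without immune UMIs. *Prg4*, lubricin, rested on Rosini1148 (3080 against 497 CPM) and Soxertini568 (178 against 38.4 CPM), with 0 UMIs in the hypoxia-high cells of the other 4. *Il1b*, an inflammatory cytokine, rested on 48 UMIs in Soxertini568 (1067 against 141 CPM) and 18 in Rosini1232. Neither *Prg4* nor *Il1b* had a value in the 6-tumor fit on cells without immune UMIs. In Soxertini568 28.6% of the hypoxia-high cells had no immune UMI, against 67.6% of the hypoxia-low cells. The part of immune transcripts in the *Il1b* values was not tested.

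**Figure D3:**
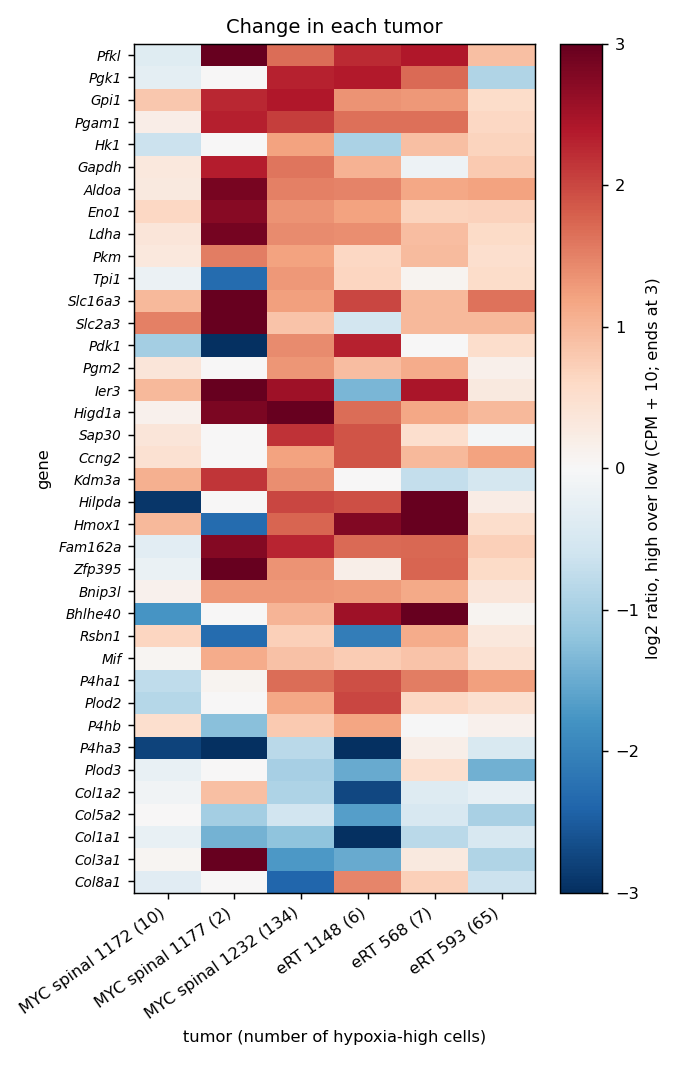
Log2 ratio of CPM (after adding 10) in hypoxia-high over hypoxia-low cells for the glycolysis, transport, hypoxia target and collagen genes with an unadjusted p under 0.05 over 3 tumors, in each of 6 tumors with the number of hypoxia-high cells in brackets. *Aldoa*, *Gpi1*, *Higd1a* and *Slc16a3* are higher in all 6 tumors, whereas *Pgk1* is lower in Rosini1172 and Soxertini593. Colors end at 3.

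Among genes that modify collagen 1 rose, while a collagen gene fell. Prolyl 4-hydroxylase needs oxygen, and *P4ha1*, its HIF-responsive subunit, rose over 6 tumors (log2 fold change 1.45 ± 0.28 SE, adjusted p = 0.00147). It was at 215 against 60.2 CPM in Rosini1232, 452 against 110.4 CPM in Rosini1148, 111 against 32.0 CPM in Soxertini568 and 92.5 against 33.7 CPM in Soxertini593, and at 32.5 against 61.7 CPM in Rosini1172. Across its list of 22 genes, 16 were tested over 3 tumors with a median log2 fold change of -0.18, which was 0.055 without Rosini1232. *Plod2*, a lysyl hydroxylase, was at 1.03 ± 0.38 SE and *P4ha3* at -0.78 ± 0.30 SE, with unadjusted p under 0.05 and adjusted p = 0.774 and 0.775. Of 18 collagen genes 13 were tested, 10 with a negative fold change against 52.3% of all genes, at a median of -0.47, which was -0.28 without Soxertini593. *Col1a2*, which also served to choose the tumor cells, is among the genes tested here. *Col1a1*, a chain of type I collagen, fell over 6 tumors and was lower in 6 of 6, as were 3.44% of all genes, at 3.18 against 20.5 CPM in Rosini1232 and 523 against 737 CPM in Soxertini593 (log2 fold change -1.24 ± 0.33 SE, adjusted p = 0.0448).

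The mitochondrial gene groups had medians below 0. The 75 nuclear genes of the respiratory chain that were tested had a median log2 fold change of -0.08 (-0.019 without Rosini1232), and none had an unadjusted p under 0.05. The 13 mitochondrially encoded genes had a median of -0.23, 3 of them lower at an unadjusted p under 0.05 (2.51% of all genes). The mitochondrial share of a cell's UMIs was lower in hypoxia-high cells in 5 of 6 tumors by the median, for example 1.23% against 1.56% in Rosini1232 and 1.66% against 1.88% in Soxertini593. The mean difference over the 3 tumors was -0.39 percentage points (exact sign-flip permutation test, two-sided, p = 0.25, the smallest that 3 tumors allow, adjusted p = 0.75 over 3 cell measures). Over 6 tumors it was -0.46 points (exact permutation p = 0.0625, adjusted p = 0.188, smallest possible 0.0312).

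The median UMIs per cell were 5677.5 against 5342.5, 4169 against 4632 and 3289 against 3623 in Rosini1172, Rosini1232 and Soxertini593 (mean log2 ratio -0.07, exact permutation p = 0.5, adjusted p = 0.75). Genes detected in cells thinned to 1000 UMIs were 669.5 against 660.0, 564.5 against 583 and 564 against 563 (mean difference -2.67 genes, exact permutation p = 1). The exact permutation test over 3 tumors cannot go below p = 0.25.

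Genes of cholesterol synthesis and the cell cycle were also followed. Of 21 cholesterol synthesis genes tested, 20 had a positive fold change over 3 tumors (47.7% of all genes), with a median of 0.50 and 8 higher at an unadjusted p under 0.05 (3.49% of all genes), and 0 of 11 passed over 6 tumors. By tumor their median log2 ratio ranged from -0.55 in Rosini1148, with 8 of 21 higher, to 0.87 in Soxertini568, and was 0 in Rosini1177. *Sqle*, squalene epoxidase, which uses oxygen, was at 95.5 against 36.4 CPM in Rosini1232 and 48.3 against 35 CPM in Soxertini593. The G2/M genes had a median of -0.30 (26 tested), which was -0.48 without Rosini1232 and -0.055 without Soxertini593, and the ratios of single tumors had a median of 0.0023 in Rosini1232 and -0.62 in Soxertini593. The S phase genes had a median of -0.18 (19 tested), or -0.32 without Rosini1232 and -0.31 without Soxertini593. The unfolded protein response had a median of 0.03 over 24 genes and of -0.053 over 6 tumors, although *Ddit3*, a stress transcription factor of that list, rose over 6 tumors (log2 fold change 1.13 ± 0.29 SE, adjusted p = 0.0301). It was lower in Rosini1177 and Soxertini593.

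Among the 6 genes that fell over 6 tumors, *Penk*, the enkephalin precursor, had 0 UMIs in both states of Rosini1177. It was at 626 against 1401 CPM in Rosini1232, 179 against 868 CPM in Rosini1172, 0 against 2617 CPM in Rosini1148 and 0 against 31.8 CPM in Soxertini593, but at 88.9 against 70.4 CPM in Soxertini568 (log2 fold change -2.32 ± 0.43 SE, adjusted p = 5.70e-04). *Stmn2*, a microtubule regulator of neurons, was at 30.3 against 197 CPM in Rosini1232 and 225 against 283 CPM in Soxertini593 (adjusted p = 0.00307). *Ptn*, a heparin-binding growth factor, fell and was lower in 6 of 6 tumors (adjusted p = 0.0104). *Bex1*, *Ccne1* and *Col1a1* were the others. *Ccne1*, cyclin E1, had 0 UMIs in the hypoxia-high cells of 5 tumors, against 54.5 CPM in the hypoxia-low cells of Rosini1232, and was at 114 against 113 CPM in Rosini1172. *Bex1* was at 25.5 against 212 CPM in Rosini1232 and in 3 tumors had 0 UMIs in both states, and DESeq2 gave it the opposite sign (0.86 over 6 tumors).

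In Rosini1232 and Soxertini593, each with over 500 tumor cells, levels could be followed along the score. In Rosini1232 the glycolysis genes summed to 5990.4 CPM in cells below the median, 7278 CPM between the 50th and 75th percentiles, 10200.5 CPM between the 75th and 90th, 13498 CPM between the 90th and 95th and 20550.5 CPM (95% Poisson interval 20039.9 to 21071) above. In Soxertini593 they summed to 4019, 4015, 4637, 6161 and 6730.0 CPM (last interval 6283 to 7200.1) over the same steps, so the sum was higher from the 75th percentile on, and by less. The lowest step of Soxertini593 holds its 393 cells at 0, 60.6% of its tumor cells, with 1573198 UMIs. The step up to the 75th percentile holds 93 cells with 687997 UMIs, and the step up to the 90th holds 98 cells with 476828 UMIs. Depth per cell thus differed between its steps, and the part of depth in these values was not tested. The mitochondrially encoded genes of Rosini1232 went from 17496 to 14599 CPM from the lowest to the highest step. The collagen genes of Rosini1232 went from 963 CPM below the median to 304 CPM in the top 5% of cells, with 717 CPM in the step before. The collagen sums include *Col1a2*, which also served to choose the tumor cells. In Soxertini593 these sums did not fall evenly. Over the same steps its mitochondrially encoded genes were at 19813, 17467, 19462, 17356 and 17795 CPM, and its collagen genes at 3554, 2379, 2936, 2772 and 2619 CPM. The G2/M genes of Soxertini593 were at 1897, 2410, 1441, 1127 and 958 CPM. Those of Rosini1232 were at 2943, 3046, 2783, 2542 and 3149.8 CPM. Because cells of 1 tumor are not replicates, these steps are a description.

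**Figure D4:**
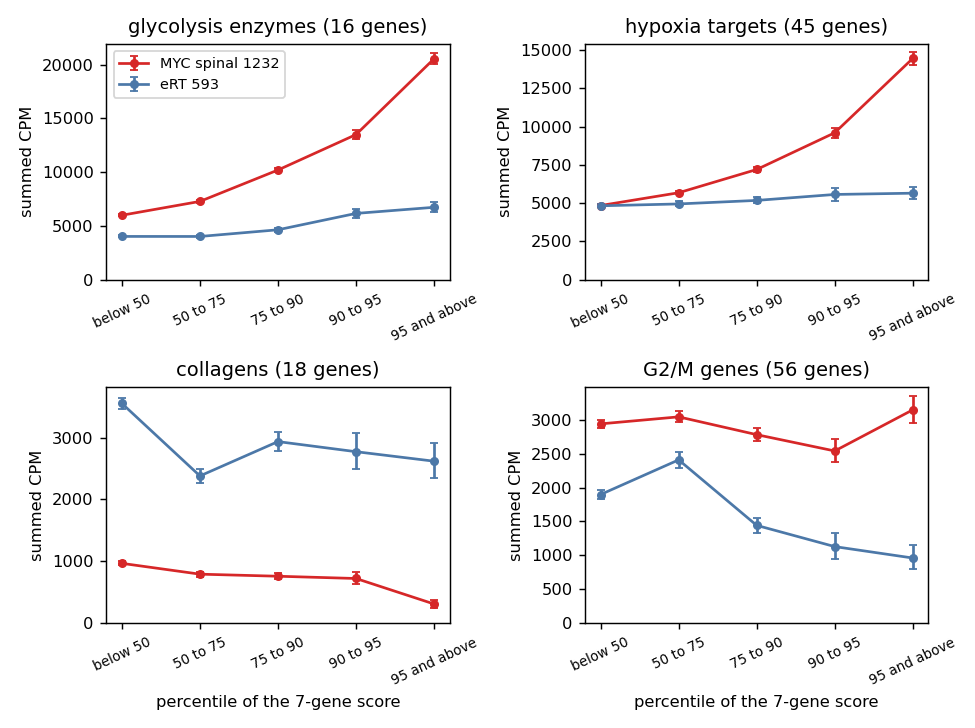
Summed CPM of glycolysis, hypoxia target, collagen and G2/M genes in cells ordered by the score percentile in Rosini1232 and Soxertini593, with 95% Poisson intervals. Glycolysis in Rosini1232 climbs from 5990.4 to 20550.5 CPM, and in Soxertini593 from 4019 to 6730.0 CPM. The lowest step of Soxertini593 holds all its cells at 0, 60.6% of its tumor cells.

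Transcripts of other cell types were present in the hypoxia-high cells. The 10 macrophage and monocyte markers summed to 97.5 to 716 CPM in hypoxia-high cells and 89.6 to 604 CPM in hypoxia-low cells, against 8278 to 41506 CPM in immune cells, and were higher in the hypoxia-high cells of 4 of 6 tumors. All 5 of them tested over 3 tumors had a positive fold change, with a median log2 fold change of 0.80 and 3 higher at an unadjusted p under 0.05 (3.49% of all genes). The median was 0.32 without Rosini1232, and in Rosini1172 the median log2 ratio was -0.86 with 0 of 5 higher. Between 2 and 9 of the 10 markers had 0 UMIs in the hypoxia-high cells of a tumor. *Adgre1*, which encodes the macrophage antigen F4/80, had 0 in all 6 tumors. With 2 to 134 such cells per tumor, a 0 does not show that a marker was absent. In cells with no UMI of *Tyrobp*, *Fcer1g* and *Ptprc*, where only Rosini1232 and Soxertini593 had enough cells, the macrophage median was 0.12 and the glycolysis median was 1.35, with 10 of 13 glycolysis genes past an adjusted p of 0.05. In the same 2 tumors with the immune UMIs kept in, the macrophage median was 0.90 and the glycolysis median was 1.38, with 9 of 14 past it. Fibroblast markers were higher in 3 of 6 tumors, neutrophil markers in 2 and endothelial markers in 4, where the endothelial sum was 0 to 66.7 CPM in hypoxia-high cells. Epithelial markers were higher in 3 tumors, at 2176 against 966 CPM in Rosini1148, 422 against 6.40 CPM in Soxertini568 and 162 against 17.2 CPM in Rosini1172. *Cdh1* had 0 UMIs in the hypoxia-high cells of all 6. A gene seen in under 3 cells of a tumor is not in its matrix and reads as 0. *Krt5* and *Krt14* are in none of the 6 matrices, so they could not be read in these cells. The part of these transcripts in the results was not tested.

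Genes that mark 2 other states of these tumors were also read. The interferon-stimulated genes had a median log2 fold change of -0.07 over 20 genes, 1 of them lower at an unadjusted p under 0.05 (2.51% of all genes). The sign was not stable, with medians of 0.12 over 6 tumors, 0.31 in cells with no immune UMI and 0.16 within depth bins, and 16 of 20 genes were higher in Rosini1148 and in Soxertini568. *Ccl2*, a monocyte attractant, was at 1231 against 655 CPM in Rosini1232 but lower in the hypoxia-high cells of the other 5, for example at 559 against 726 CPM in Soxertini593 (log2 fold change 0.36 ± 0.29 SE over 3 tumors, adjusted p = 0.917).

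Among the 3 tumors with at least 10 cells in each state, 1 is an eRT, so p-values between subtypes over these 3 measure no spread between eRT. That eRT is Soxertini593, so subtype cannot be told apart from that animal and its Cre model. Against MYC spinal Rosini1172 and Rosini1232 its change with the state differed for 6 of 7322 genes, 4 with a higher (0.0546%) and 2 with a lower change (0.0273%). Over all 6 tumors, chosen after the data had been seen, 7 genes passed, of which *Efemp1* and *Spp1* were among those 6. Over the 5 tumors with at least 5 cells *Spp1* alone passed. In the fits over 6 and over 5 tumors 0 glycolysis genes passed, which does not show that they changed alike in both subtypes. Over the 3 tumors the difference of *Pgk1* was -3.24, a lower change in Soxertini593. *Npy*, neuropeptide Y, was higher in the hypoxia-high cells of Rosini1232 (363 against 14 CPM) and of Soxertini593 (1078 against 474 CPM), with 0 UMIs in Rosini1172, so the difference of change (-3.59 ± 0.59 SE, adjusted p = 9.88e-06) rests on Rosini1232, and over 6 tumors it was -1.46 (adjusted p = 1). *Spp1*, osteopontin, was at 72.4 against 12.7 CPM in Soxertini593 and 146 against 433 CPM in Rosini1232, and at 1836 against 1152 CPM in Rosini1172 (2.99 ± 0.64 SE, adjusted p = 0.00895), so the MYC spinal tumors moved in opposite directions. Over 6 tumors the difference of *Spp1* was 4.31 (adjusted p = 2.15e-05). DESeq2 called 0 genes in this comparison, with 4 and 9 at an unadjusted p under 0.05, and the edgeR fit could not be made without any 1 of the 3 tumors.

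Immune cells of the same tumors, split by the same score, allow the change to be compared between compartments. In tumor cells *Aldoa* changed by 1.07 ± 0.22 and in immune cells by 0.70 ± 0.20 on the log2 scale (SE, 3 tumors), *Pfkl* by 1.48 ± 0.30 and 1.12 ± 0.24, and *Slc16a3* by 2.27 ± 0.45 and 1.94 ± 0.25. These 3 differences, of 0.36 ± 0.30, 0.36 ± 0.37 and 0.33 ± 0.49, did not pass (adjusted p = 1). A difference passed by edgeR for 15 of 9460 genes (0.159%), each with a lower change in tumor cells, and for 0 genes with a higher one, where 142 had an unadjusted p under 0.05. The model took the changes of tumor and immune cells of the same animal as independent. DESeq2 called 0 higher and 1 lower. The count rests on Rosini1232, without which it was 0, and was 24 without Soxertini593. *Penk* changed by -1.59 ± 0.27 in tumor cells and 1.59 ± 0.36 in immune cells (adjusted p = 1.61e-04). *Timp1*, an inhibitor of matrix proteases, changed by -0.65 ± 0.24 and 0.97 ± 0.28 (adjusted p = 0.0471), and *Meg3*, a noncoding RNA that also served to choose the tumor cells, by -0.20 ± 0.26 and 1.91 ± 0.38. Immune cells were selected for under 3 of the tumor genes, and the part of tumor transcripts in the immune values was not tested.

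**Figure D5:**
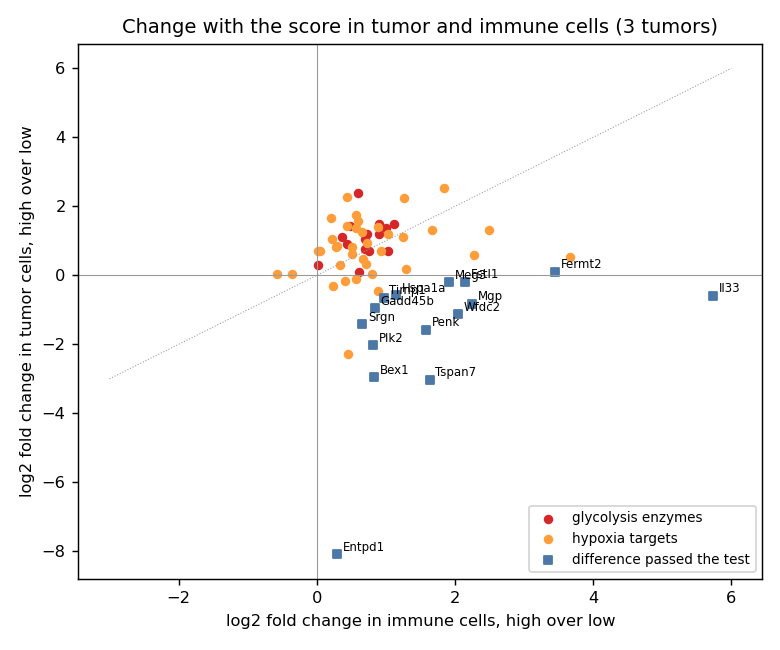
Log2 fold change of hypoxia-high over hypoxia-low in immune cells (x axis) and tumor cells (y axis) over 3 tumors, for glycolysis enzymes, hypoxia targets and the 15 genes whose difference passed, with the line of equal change dotted. *Aldoa* and *Pfkl* lie above 0 on both axes, while *Penk* lies at 1.59 in immune cells and -1.59 in tumor cells.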

How the data were processed

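Single-cell libraries of 6 tumors were analysed. The authors sorted 7-AAD-negative single cells, made 10x 3′ v2 libraries and aligned reads to mm10 with Cell Ranger 2.0.2. The deposited values are UMI counts by gene and cell, in 1 matrix per tumor that had not been normalized. Each matrix keeps genes seen in 3 cells or more, and 0 columns of per-sample values were left unused. Tables held 3867853 to 26191718 UMIs. The cells and gene lists were chosen with earlier results of these data known. Tumors were grouped by the tissue in their labels. For the states, p-values rest on the spread between tumors, which are separate animals. In edgeR's gene tests that spread is estimated partly from all genes together. The SE and p-value of a single gene are thus not a measure of that gene's own spread between animals alone. The subtype comparison over 3 tumors holds 1 eRT, so its p-values measure no spread between eRT.

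UMIs were summed per tumor and state, for tumors with at least 10 cells in each, and scaled to CPM for description. Genes were filtered with filterByExpr, the 7 score genes were left out of the tests, and the sums were scaled with TMM and tested with the quasi-likelihood test of edgeR 4.0.16 (R 4.3.3), with a term for the tumor, since both states come from the same animal, and Benjamini-Hochberg adjustment at 0.05. SE is the fold change over the square root of F. Interaction terms tested the difference between subtypes and between tumor and immune cells. For tumor against immune cells each tumor and compartment had its own term. No term linked the changes of both compartments of the same animal. Cell measures were tested by exact sign-flip permutation. The gene test was run on simulated counts. Ratios add 10 CPM, and intervals are exact Poisson at 95%. Scrublet (scanpy 1.11.5) marked 21 cells (0.0948%), a share too low to rely on, so no cell was dropped on its call. Single cells were gated before capture, which does not remove doublets formed in droplets.

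The named-gene rule was to name the score genes, called members of the glycolysis, transport, oxygen-sensing, hypoxia target and collagen hydroxylation lists, up to 4 members of each other list with the smallest p, the top 10 called genes per direction, and the top 5 per direction of an interaction. As 0 genes were called between the states over 3 tumors, the other genes named were chosen after their values were seen. Alternatives were DESeq2 1.42.0, no TMM factors, no filter, Bonferroni adjustment, other cell and score limits, thinning to 1000 UMIs, choosing cells on a random part of the UMIs and measuring genes on the rest, removal of high Scrublet scores, no tumor block, and each tumor left out. Those over all 6 tumors, at least 5 cells, percentiles over all cells, and 9 further such splits were added after the data had been seen.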

Additional observations from a re-analysis of the deposited data

Results flagged for a closer look

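Among 36 sets of 6 tumor values looked at, 4 held a tumor far from the others, where chance gives about 1 in 20. The 90th percentile of the score in immune cells was 26.3 UMIs per 10000 in eRT Soxertini568, above the other tumors. The log2 ratio of high over low was -4.69 for *Col1a1* and -8.04 for *Penk* in eRT Rosini1148, from 6 hypoxia-high cells with 0 UMIs of each, and 4.45 for *Slc16a3* in MYC spinal Rosini1177, from 1 UMI.

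The change with the state differed between eRT Soxertini593 and the MYC spinal tumors Rosini1172 and Rosini1232 by edgeR's test for *Npy* (-3.59), *Efemp1* (8.98), *Spp1* (2.99), *Inmt* (-9.34), *Mgp* (2.08) and *Angptl4* (4.72 on the log2 scale). Values for *Efemp1* and *Inmt* involve states with 0 UMIs and depend on the prior count, and with 1 eRT the subtype cannot be told apart from that animal. DESeq2 called 0 of them, and over all 6 tumors only *Efemp1* and *Spp1* of the 6 passed.

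It differed between tumor and immune cells by test for *Penk* (-3.17), *Fstl1* (-2.34), *Wfdc2* (-3.17), *Fermt2* (-3.35), *Tspan7* (-4.67), *Mgp* (-3.08), *Entpd1* (-8.39), *Gadd45b* (-1.80), *Hspa1a* (-1.73), *Meg3* (-2.11), *Bex1* (-3.79), *Plk2* (-2.84), *Srgn* (-2.08), *Il33* (-6.33) and *Timp1* (-1.62).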

How the results depend on the processing

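All values are numbers of called genes unless said. For hypoxia-high against hypoxia-low cells, where edgeR called 0, other settings gave 12 without TMM factors, 70 without the filter on low counts, 35 with at least 4 tumor genes, 37 in cells with no immune UMI, 23 against all other tumor cells, 2 within depth bins, 7 after thinning to 1000 UMIs, and 19 with cells chosen on a random part of the UMIs and genes measured on the rest (0 to 34 over 9 further seeds). The tumors that entered changed too: 2 with at least 4 tumor genes, with no immune UMI and at the 95th percentile, 4 within depth bins and after thinning, and 5 at the 80th percentile, so these counts cannot be put down to the setting alone. DESeq2, Bonferroni, the 80th and 95th percentiles, stricter cell filters, removal of high Scrublet scores and the fit with no replicate block gave 0. Leaving out a tumor gave 0 to 30 (30 without Rosini1172, 4 without Rosini1232). Added after the data were seen, percentiles over all cells gave 17, tumors with at least 5 cells 1, and all 6 tumors 29. The latter gave 7 with no immune UMI, 17 within depth bins, 30 with split UMIs, 22 without TMM, 13 by DESeq2, and 45, 1, 4, 34, 40 and 26 without Rosini1172, Rosini1177, Rosini1232, Rosini1148, Soxertini568 and Soxertini593.

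Between subtypes, 6 became 0 by DESeq2, 3 against all other tumor cells, and 1 after thinning, with split UMIs or with at least 5 cells (5 tumors); it could not be fitted with 4 tumor genes, no immune UMI, the 95th percentile or a tumor left out. Between tumor and immune cells, 15 became 24 without TMM, 1 by DESeq2 and by Bonferroni, 29 without the filter, 39 with no immune UMI, 9 against all other cells, 6 within depth bins, 5 with all 6 tumors, and 0 to 24 without a tumor. Causes were not tested.

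Some changes reversed: *Bex1* to 0.95 by DESeq2 (0.86 with 6 tumors), *P4hb* to -0.027 after thinning, and without Rosini1232 *Bhlhe40* to -0.030 and *Pgk1* to -0.73 (highest without a tumor 0.97 and 1.92). UMIs per cell turned to 0.17 (80th percentile) and 0.13 (depth bins), and detected genes to 2.3 (80th percentile), ranging from -8.75 to 5.25 without a tumor. Of 1298 values of 45 genes under other settings, 950 kept their direction without a call, 343 kept it with a call and 5 reversed. These genes were chosen on their values in the same data, and the settings reuse the same tumors. The tally therefore does not test the changes. *Il1b* and *Prg4* are not among these genes. No pairing by replicate number across subtypes was made, since numbers follow accession order; states were paired by tumor. Counts of 2 to 10 cells in 4 tumors limit what could be seen.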
